A study of Mus musculus with 6 samples.

Results

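The sodium-potassium ATPase, or sodium pump, was examined in the mouse retina through the transcripts of its beta subunits. The members are Atp1b1, Atp1b2 and Atp1b3, taken by gene symbol from the table of read counts per gene, so that 3 of its 55376 genes belong to the group. All 3 passed the low-count filter, which kept 18547 genes for testing. Other genes tied to the pump were kept as lists. The study sequenced RNA of whole retinas from 3 wild-type (WT) and 3 Wfs1-/- mice (Wfs1-KO), each retina from a different mouse, at postnatal day 240, or 8 months. The mutant mice carry the targeted allele that deletes exon 8 of Wfs1, and no treatment is listed for either group. The sample labels give the strain of both genotypes as C57x129, while the study's methods name a C57BL/6 J background.

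The sodium pump moves sodium out of the cell and potassium in at the cost of ATP, and so maintains the gradients that photoreceptors, neurons and glia spend on signaling and transport. A working pump joins a catalytic alpha subunit, which hydrolyses ATP, with a beta subunit, a single-pass glycoprotein that is needed for the alpha subunit to fold in the endoplasmic reticulum and reach the membrane. A small FXYD protein may join them and tune the kinetics. Wolframin, the endoplasmic reticulum membrane protein encoded by Wfs1, is known to bind the beta 1 subunit, which raises the question of whether the subunit transcripts differ in its absence. In photoreceptors, the inner segment pump carries the current that sodium entry through the outer segment channels demands in darkness.

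Total counts ranged from 17916885 to 101334381 per retina. The lowest count of a member was 1806, for Atp1b3 in WT replicate 3, and the exact Poisson interval around it was 4.72% of the value on its wider side. Such intervals cover counting error only. The Wfs1 transcript, which checks the labels, stood at 64.9, 61.4 and 69.9 CPM (counts per 1000000 reads, with library sizes scaled by TMM factors) in WT replicates 1, 2 and 3 and at 9.63, 0.900 and 11.5 CPM in Wfs1-KO replicates 1, 2 and 3. Wfs1-KO replicate 2 stood apart from the other retinas, with a mean correlation to them of 0.918 across genes against 0.962 to 0.971 for the others. It lay above all 5 other retinas for 38.4% of the tested genes and below all 5 for 36.8%. Each log2 fold change between genotypes is therefore also given without it. WT replicate 3 alone had the Y-linked gene Ddx3y above 2 counts, at 1137, with 4 counts of Xist, so its sex differs from that of the other 5 animals.

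Atp1b1 (ENSMUSG00000026576.12) is encoded on the minus strand of chromosome 1 (mm10, start 164437109, end 164458355). Its longest annotated coding transcript has 6 exons and 2580 bases. Atp1b2 (ENSMUSG00000041329.13) lies on chromosome 11 from 69599736 to 69605829, on the minus strand, with 7 exons and 2842 bases. Atp1b3 (ENSMUSG00000032412.8) lies on chromosome 9 from 96332655 to 96364442, on the minus strand, with 7 exons and 1994 bases. The 3 genes are thus on separate chromosomes and have transcripts of similar length. No stretch of 50 bases was shared between the annotated transcripts of any pair of beta subunit genes. Of the exon bases of Atp1b1, 192 (7.44%) overlap exons of Nme7 on the opposite strand. Reads in that stretch cannot be assigned to 1 gene without strand. Atp1b2 and Atp1b3 shared no exon base with another gene.

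Atp1b2 was the leading beta subunit transcript of the retina, followed by Atp1b1 and then Atp1b3. Levels of different genes were compared as RPKM, the CPM divided by the exon length in kilobases. Atp1b2, known as the adhesion molecule on glia and also a beta subunit of photoreceptors, had 472, 544 and 560 RPKM in WT replicates 1, 2 and 3, and 525 ± 46.6 RPKM (SD, n = 3). Atp1b1, the beta subunit found in most tissues, had 182, 206 and 182 RPKM in the same retinas, and 190 ± 14.1 RPKM (SD, n = 3). Atp1b3 had 47.7, 55.3 and 51.4 RPKM, and 51.5 ± 3.79 RPKM (SD, n = 3). The ranges of the 3 genes in WT retinas did not touch. Within each of the 6 retinas Atp1b1 was below Atp1b2, with a mean log2 ratio of -1.45 (SD 0.15, n = 6, exact sign-flip permutation test, two-sided, p = 0.0312, the smallest that 6 retinas allow, adjusted p = 0.0469 over 3 pairs). Atp1b2 was above Atp1b3 in all 6 retinas, with a mean log2 ratio of 3.02 (SD 0.89, n = 6, exact sign-flip permutation test, p = 0.0312, adjusted p = 0.0469). Atp1b1 was above Atp1b3 in 5 of 6 retinas, with a mean log2 ratio of 1.57 (SD 0.78, n = 6, exact sign-flip permutation test, p = 0.0625, adjusted p = 0.0625). The exception was Wfs1-KO replicate 2, in which both stood at nearly the same level, 105 RPKM for Atp1b1 and 106 RPKM for Atp1b3.

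Atp1b1, whose protein is the known partner of wolframin, had 469, 533 and 470 CPM in WT replicates 1, 2 and 3 and 436, 270 and 463 CPM in Wfs1-KO replicates 1, 2 and 3. Every mutant retina was below every WT retina, but the gap between the highest mutant and the lowest WT retina was within counting error, with exact Poisson intervals of 457 to 470 CPM for Wfs1-KO replicate 3 and 464 to 474 CPM for WT replicate 1. Of all tested genes, 8.96% had groups that did not overlap, and 3.94% had all mutant retinas below all WT retinas. The mean was 491 ± 36.5 CPM in WT and 390 ± 104 CPM in Wfs1-KO (SD, n = 3 each). The log2 fold change, Wfs1-KO minus WT, was -0.33 (SE, the standard error, 0.23, 95% interval -0.88 to 0.22). It gave an adjusted p of 0.979 in the quasi-likelihood test of edgeR, with Benjamini-Hochberg adjustment over all tested genes. Without Wfs1-KO replicate 2 it was -0.13 (SE 0.13, 95% interval -0.41 to 0.15, adjusted p = 0.968).

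Atp1b2 had 1343, 1545 and 1592 CPM in the WT retinas and 1448, 698 and 1444 CPM in the Wfs1-KO retinas, in replicate order. Mutant replicates 1 and 3 lay inside the WT range, and mutant replicate 2 lay below it. The mean was 1493 ± 133 CPM in WT and 1197 ± 432 CPM in Wfs1-KO (SD, n = 3 each), with a log2 fold change, Wfs1-KO minus WT, of -0.32 (SE 0.29, 95% interval -1.005 to 0.37, adjusted p = 0.979, edgeR). Without Wfs1-KO replicate 2 the log2 fold change was -0.05 (SE 0.12, 95% interval -0.31 to 0.21, adjusted p = 0.982).

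Atp1b3 had 95.2, 110 and 103 CPM in the WT retinas and 96.9, 211 and 91.8 CPM in the Wfs1-KO retinas. Here mutant replicate 2 was above the other 5 retinas, opposite to its position for Atp1b1 and Atp1b2. The mean was 103 ± 7.55 CPM in WT and 133 ± 67.3 CPM in Wfs1-KO (SD, n = 3 each), with a log2 fold change, Wfs1-KO minus WT, of 0.38 (SE 0.33, 95% interval -0.41 to 1.16, adjusted p = 0.979, edgeR). The sign turned without that retina, to -0.13 (SE 0.13, 95% interval -0.42 to 0.16, adjusted p = 0.968).

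**Figure D1:**
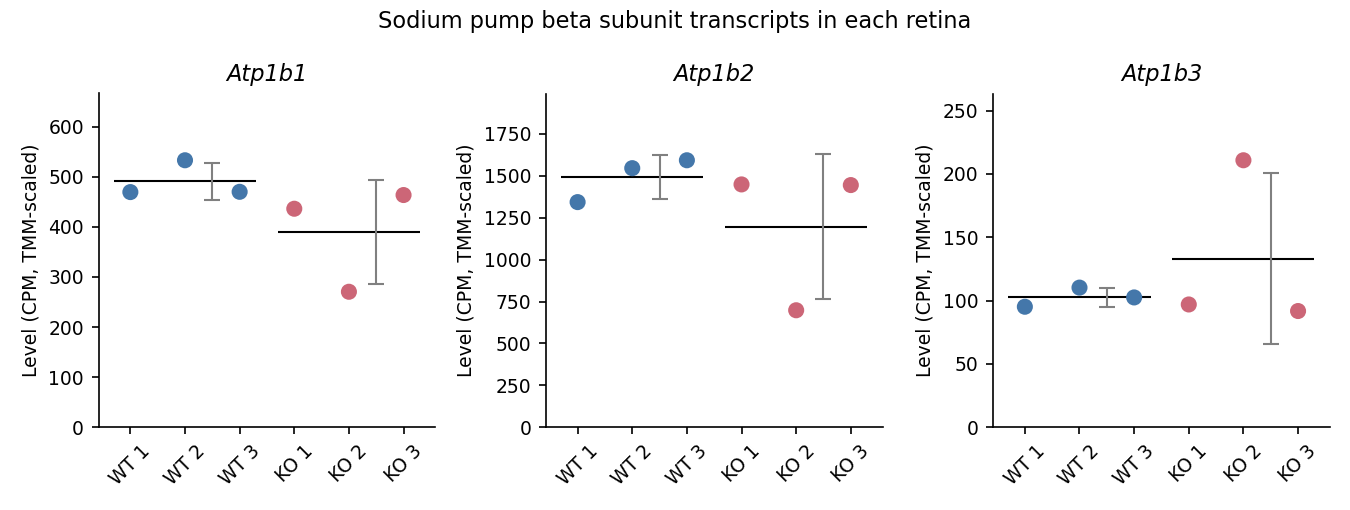
CPM of Atp1b1, Atp1b2 and Atp1b3 in each retina (blue, WT; red, Wfs1-KO; numbers are replicates), with a black line at each group mean and a grey bar of 1 SD, n = 3. Mutant replicates 1 and 3 lie near the WT retinas for all 3 genes, while mutant replicate 2 is at 270, 698 and 211 CPM.

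None of the 3 members passed an adjusted p of 0.05, and 0 had an unadjusted p under 0.05 in edgeR. With DESeq2 the adjusted p was 0.993 for each. Over all tested genes 0.0108% passed the adjusted threshold and 2.81% the unadjusted one. Wfs1, the targeted gene, also had an adjusted p of 0.979 in edgeR on all 6 retinas. A high adjusted p there therefore does not show that a level is unchanged. Without Wfs1-KO replicate 2, again 0 of the 3 passed either, against 0.125% and 5.19% of the genes tested there. The 95% intervals of the log2 fold change without that retina still reached -0.41 for Atp1b1, -0.31 for Atp1b2 and -0.42 for Atp1b3. Among the 5 other retinas the coefficient of variation was 7.49% for Atp1b1, 6.59% for Atp1b2 and 7.29% for Atp1b3, beside a median of 15.6% over all tested genes. That median includes genes at far lower levels, where counting error is larger, and genes of like level were not compared.

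The ratio of 2 members within a retina does not depend on how libraries are scaled. Per exon length, the ratio of Atp1b1 to Atp1b2 was 0.385, 0.380 and 0.325 in WT and 0.332, 0.427 and 0.353 in Wfs1-KO replicates 1, 2 and 3. The genotypes overlapped, with a difference of 0.02 on the log2 scale, Wfs1-KO minus WT (exact permutation test over the retinas, two-sided, p = 0.9, where 0.1 is the smallest p that 3 against 3 allow). Mutant replicate 2 had the highest ratio, above the 0.385 of WT replicate 1.

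The ratio of Atp1b1 to Atp1b3 was 3.81, 3.73 and 3.54 in WT and 3.48, 0.991 and 3.90 in Wfs1-KO retinas. The ratio of Atp1b2 to Atp1b3 was 9.90, 9.83 and 10.9 in WT and 10.5, 2.32 and 11.0 in Wfs1-KO retinas. Both ratios set mutant replicate 2 apart from the rest. The differences were -0.64 (exact permutation test, p = 0.6) and -0.66 (exact permutation test, p = 0.9) on the log2 scale, with an adjusted p of 0.9 for each of the 3 ratios. Without that retina they were -0.0044 and 0.08.

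As a share of the summed beta subunit RPKM, Atp1b2 made up 67.3% to 70.6%, Atp1b1 22.9% to 25.9% and Atp1b3 6.27% to 6.87% in the 5 other retinas. In Wfs1-KO replicate 2 the shares were 53.8%, 23.0% and 23.2%. The share of Atp1b1 there lay inside the range of the others, that of Atp1b2 below it and that of Atp1b3 above it. The summed beta subunit level in that retina was 456 RPKM, against 702 to 805 RPKM in the others.

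**Figure D2:**
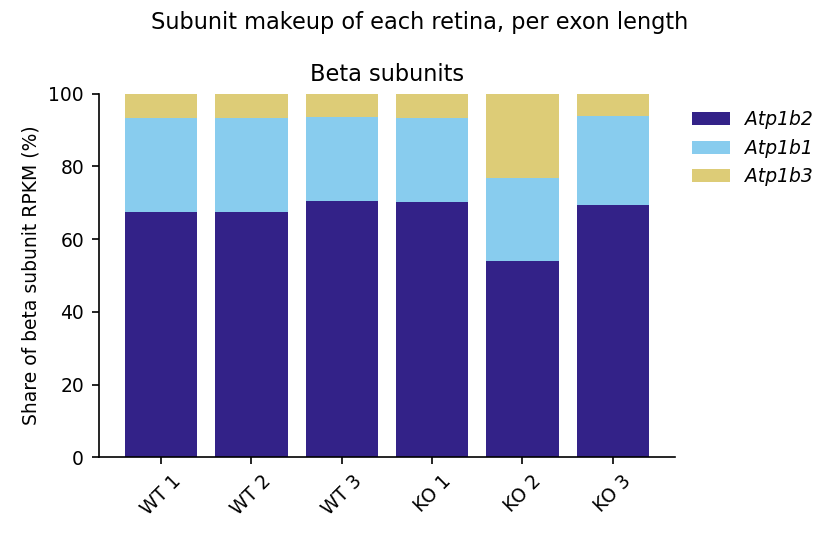
Share of each beta subunit in the summed beta subunit RPKM, in percent, as a stacked bar for each retina. In 5 retinas Atp1b2 makes up 67.3% to 70.6% and Atp1b3 6.27% to 6.87%, and in Wfs1-KO replicate 2 they make up 53.8% and 23.2%.

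Relative to the mean CPM of the 5 other retinas, Wfs1-KO replicate 2 had 57.0% for Atp1b1, 47.3% for Atp1b2 and 2.12 times for Atp1b3. It lay outside the range of the others for most tested genes, as given above. Markers of several cell types moved in the same retina. The summed CPM of 8 rod markers was 51263, against 65396 to 73580 in the others, with 4 of the 8 genes below and 2 above all other retinas. The sum of 6 Mueller glia markers was 6809 CPM, against 4046 to 5302, with 3 of the 6 genes above and 2 below. Apoe alone had 3627 CPM of that sum, against 617 to 972 CPM in the others. Glul, at 1949 CPM against 2325 to 3245, and Aqp4, at 81.4 CPM against 124 to 184, were the genes below, so the higher sum does not describe the list as a whole. The 5 blood markers had 480 CPM, against 12.3 to 41.2, with all 5 genes above the other retinas. The 7 pigment epithelium markers had 379 CPM, against 47.4 to 160, with 4 of the 7 genes above all other retinas and 0 below. Ttr alone had 234 CPM of that sum, while Rpe65, Best1 and Lrat lay inside the range of the others. Neuronal lists moved both ways. Ganglion cell markers summed to 1345 CPM, against 847 to 1139, with 5 of 7 genes above and 1 below. Cone markers had 1155 CPM, against 904 to 1088, with 1 of 5 above and 0 below. Bipolar markers had 1127 CPM, against 1149 to 1470, and amacrine markers 724 CPM, against 763 to 908, with 2 of 5 above and 2 below. Microglia markers had 72.1 CPM, against 24.3 to 34.4, with 3 of 4 above. Of 6 genes listed as astrocyte markers after the values were seen, all 6 were higher there than in any other retina. They ranged from 1.53 times the mean of the 5 others, for Aldoc, to 11.9 times, for Gja1, a gap junction gene of astrocytes. Gja1 was at 41.3 CPM against 1.81 to 7.95. The list is not specific to astrocytes, since the study reports raised GFAP staining in mutant Mueller glia. Gfap had 47.5, 104 and 21.2 CPM in Wfs1-KO replicates 1, 2 and 3 and 11.2 to 19.2 CPM in WT. Of 5 myelin markers from the same later listing, 2 were above and 2 below all other retinas. Skeletal muscle markers, also listed afterwards, summed to 10.2 CPM against 4.56 to 5.63, with 4 of the 7 genes above all other retinas. The muscle creatine kinase gene Ckm was 3.23 times and Acta1, the skeletal muscle actin gene, 1.74 times the mean of the 5 others, while the muscle myosin Myh4 was at 0 in all 6 retinas. The part of these cell types in the subunit levels was not tested. In whole retinas, fewer cells of a type and less RNA per cell cannot be told apart.

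Of the 7 FXYD genes, 6 could be tested, since Fxyd4 had at most 27 counts. Fxyd6, a brain-enriched regulator that binds the pump and modulates its affinity for its ions, was the one with the clearest difference between genotypes. It had 77.2, 65.1 and 79.2 CPM in WT and 39.4, 50.7 and 35.7 CPM in Wfs1-KO replicates 1, 2 and 3. Every mutant retina was thus below every WT retina, which held for 3.94% of all tested genes. The log2 fold change was -0.82 (SE 0.20, 95% interval -1.27 to -0.36, unadjusted p = 0.00377, adjusted p = 0.979, edgeR). It did not pass over all tested genes on 6 retinas, in which 0.566% of genes were lower at an unadjusted p under 0.05. Without Wfs1-KO replicate 2 Fxyd6 passed, with -0.98 (SE 0.15, 95% interval -1.30 to -0.66, adjusted p = 0.0336, edgeR), as 1 of 11 lower genes, or 0.0574% of those tested, while 0.0678% were higher. At an unadjusted p under 0.05, 2.39% of genes were lower and 2.8% higher there. DESeq2 gave Fxyd6 an adjusted p of 0.0831 when all 6 retinas were kept. Fxyd6 lies on chromosome 9 from 45370185 to 45396159, on the same chromosome as Atp1b3. It shared no exon base with another gene.

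The other FXYD genes did not pass in either fit. Fxyd1, or phospholemman, a regulator of heart, muscle and glial pumps, had 42.7, 26.2 and 22.3 CPM in WT and 23.2, 89.8 and 23.6 CPM in Wfs1-KO retinas. Its log2 fold change was 0.58 (SE 0.56) and -0.39 (SE 0.24) without Wfs1-KO replicate 2. Fxyd7, a brain regulator, had 15.5, 10.8 and 9.53 CPM in WT and 11.2, 31.6 and 11.6 CPM in Wfs1-KO retinas, a log2 fold change of 0.60 (SE 0.44) that became -0.08 (SE 0.22). Both genes were highest in mutant replicate 2. Fxyd2, the gamma subunit of the kidney pump, was at 0.588 to 0.795 CPM in WT and at 0.844, 3.55 and 1.14 CPM in Wfs1-KO retinas, which did not overlap, with a log2 fold change of 1.44 (SE 0.60, unadjusted p = 0.0461, adjusted p = 0.979, edgeR) and 0.54 (SE 0.39, adjusted p = 0.968) without that retina. The highest WT value of Fxyd2, 0.795 CPM in WT replicate 3, rests on 14 counts. Its gap to the 0.844 CPM of Wfs1-KO replicate 1 was not set against counting error. Of all tested genes, 5.01% had all mutant retinas above all WT retinas, and 2.24% were higher at an unadjusted p under 0.05. Fxyd5 was highest in mutant replicate 2, at 7.74 CPM against 0.851 to 2.71 CPM in the others, and Fxyd3 stayed under 1 CPM in every retina.

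**Figure D3:**
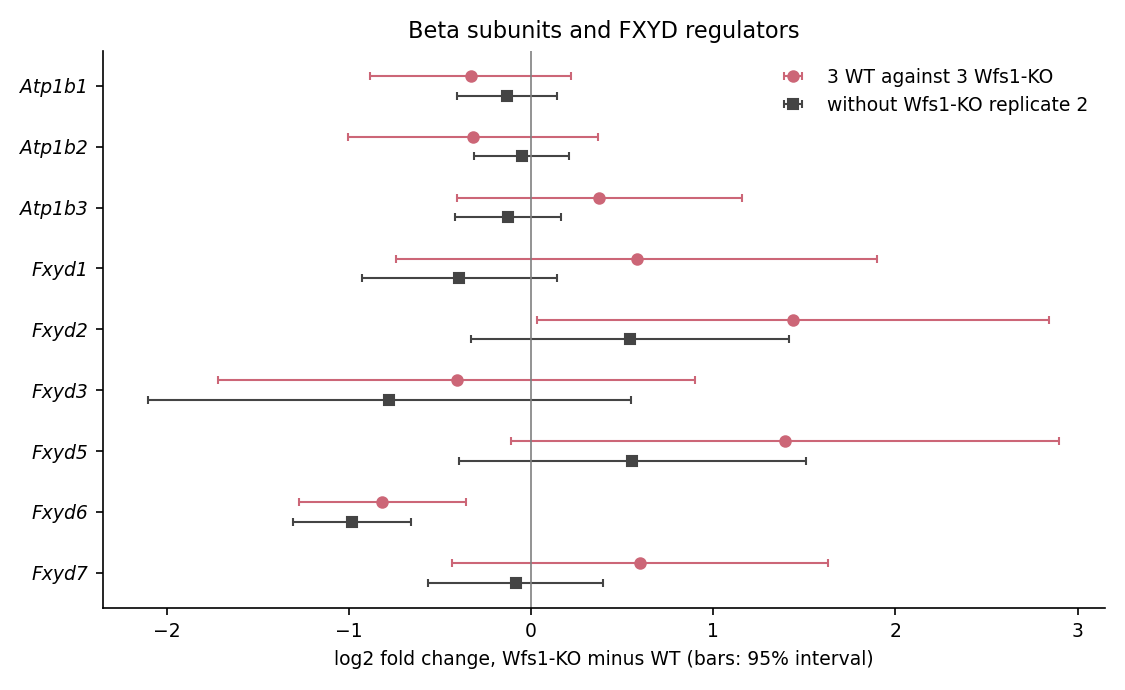
log2 fold change, Wfs1-KO minus WT, of the beta subunits and the tested FXYD genes, with 95% intervals from edgeR, for all 6 retinas (red circles) and without Wfs1-KO replicate 2 (black squares). The 3 beta subunits lie at -0.33, -0.32 and 0.38 with all retinas and at -0.13, -0.05 and -0.13 without that retina, and Fxyd6 has intervals below 0 in both.

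**Figure D4:**
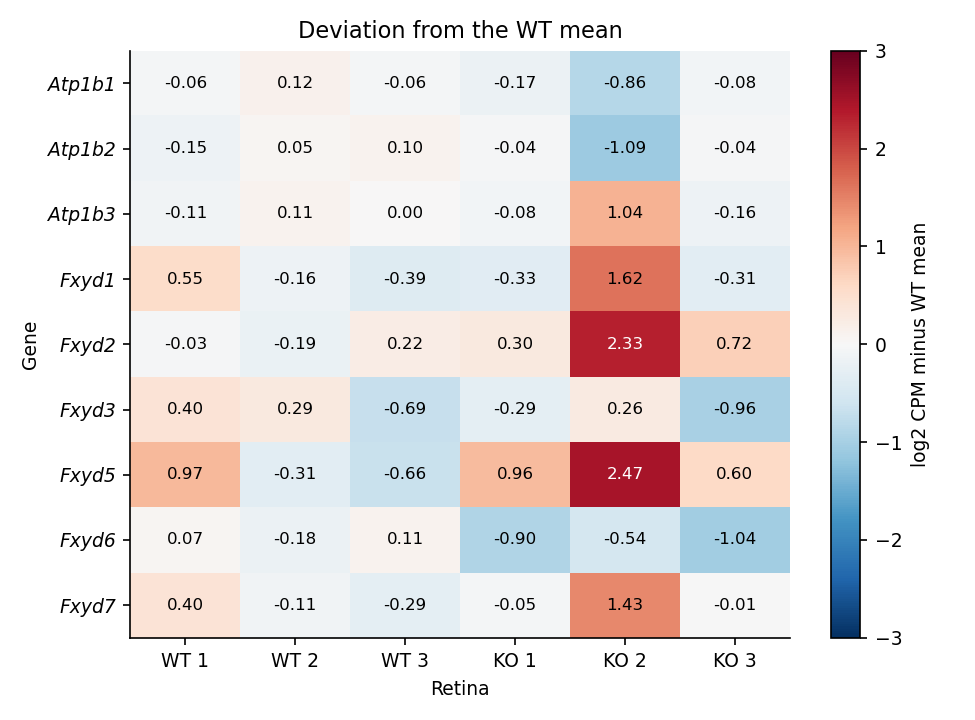
log2 CPM of each gene minus its WT mean, for each retina (columns) and each beta subunit or tested FXYD gene (rows), with the value printed in each cell and as a colour scale. Wfs1-KO replicate 2 stands at -0.86, -1.09 and 1.04 for Atp1b1, Atp1b2 and Atp1b3, while Fxyd6 is at -0.90, -0.54 and -1.04 in the 3 mutant retinas.

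Of 9 listed proteins known to bind pump subunits, Wfs1 included, all could be tested. On all 6 retinas 0 passed the adjusted threshold, and Wfs1 itself did not (log2 fold change -3.15, SE 0.77, adjusted p = 0.979, edgeR). Without Wfs1-KO replicate 2 Wfs1 passed (log2 fold change -2.64, SE 0.16, adjusted p = 2.84e-05, edgeR). The median log2 fold change of the 9 was 0.04, beside 0.02 over all tested genes, and 0.18 beside -0.00038 without Wfs1-KO replicate 2. Mlc1, an astrocyte and Mueller glia membrane protein reported to bind the beta 1 subunit, had 153, 135 and 143 CPM in WT and 150, 161 and 140 CPM in Wfs1-KO retinas, a log2 fold change of 0.06 (SE 0.16) that was 0.0068 (SE 0.13) without mutant replicate 2. Of the Nkain genes, whose products bind the beta subunit, Nkain1 had 4.46, 4.39 and 3.06 CPM in WT and 4.52, 0.616 and 4.61 CPM in Wfs1-KO retinas, and none of the 4 passed in either fit. Agrn, with a log2 fold change of -0.07 (SE 0.30) that turned to 0.15 (SE 0.21) without mutant replicate 2, did not pass. Hepacam, with 0.49 (SE 0.28) and 0.38 (SE 0.25), did not pass either.

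The carriers and the channel that spend the gradients were tested in full, 17 of 17. In edgeR 0 passed on all 6 retinas and 0 had an unadjusted p under 0.05, with a median log2 fold change of -0.05, and the same counts of 0 were found without Wfs1-KO replicate 2, with a median of 0.16 beside -0.00038 over all genes tested there. The log2 fold changes on 6 retinas lay between -0.28, for the glutamine transporter Slc38a3, and 0.21, for the sodium-calcium exchanger Slc8a1, and these were -0.18 and 0.40 without that retina. Slc24a1, the sodium-calcium-potassium exchanger of the rod outer segment, had 1824, 2038 and 1909 CPM in WT and 1657, 2329 and 1685 CPM in Wfs1-KO retinas (log2 fold change -0.03, SE 0.19, and -0.21, SE 0.11, without mutant replicate 2, which was the highest retina). Slc12a5, the neuronal potassium-chloride cotransporter, had 849, 793 and 1116 CPM in WT and 1116, 528 and 1019 CPM in Wfs1-KO retinas (log2 fold change -0.05, SE 0.30). The sign turned without mutant replicate 2, the lowest retina, to 0.21 (SE 0.15). Kcnj10, the potassium channel through which Mueller glia buffer potassium, had a log2 fold change of -0.15 (SE 0.23), which also turned without that retina, to 0.05 (SE 0.14).

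Of 9 calcium pumps of the same P-type ATPase superfamily, 8 could be tested, 0 passed and 0 had an unadjusted p under 0.05 with or without Wfs1-KO replicate 2. Atp2b1, a plasma membrane calcium pump, had 290, 434 and 432 CPM in WT and 434, 857 and 435 CPM in Wfs1-KO retinas (log2 fold change 0.58, SE 0.32, and 0.17, SE 0.17, without mutant replicate 2). It was the only 1 of the 8 for which mutant replicate 2 lay above all other retinas. For Atp2a2, Atp2b2, Atp2b3 and Atp2c1 that retina lay below all others, at 46.0%, 57.7%, 10.9% and 54.6% of their mean. The closest relatives of the sodium pump, the proton-potassium pump genes Atp4a, Atp4b and Atp12a and the muscle protein gene Atp1b4, had at most 23 counts in any retina, and none of the 4 passed the low-count filter.

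The tested genes next to the members on their chromosomes, 3 on each side, gave 18 genes, of which 0 passed and 0 had an unadjusted p under 0.05 on all 6 retinas or without Wfs1-KO replicate 2. Around Atp1b1, Nme7, a nucleoside diphosphate kinase family gene that shares exon bases with it, had a log2 fold change of -0.16 (SE 0.21) and of -0.13 (SE 0.20) without that retina, and Blzf1 had -0.27 (SE 0.18) and -0.17 (SE 0.14). Ccdc181 turned from 0.26 (SE 0.28) to -0.11 (SE 0.15). Around Atp1b2, the tumour suppressor gene Trp53 had 0.08 (SE 0.20) and -0.0094 (SE 0.18), and Fxr2 had -0.0069 (SE 0.18) and -0.0045 (SE 0.15). Around Atp1b3, Tfdp2, a partner of E2F factors, turned from -0.16 (SE 0.30) to 0.09 (SE 0.16), and Rnf7, a ubiquitin ligase component, turned the opposite way, from 0.26 (SE 0.32) to -0.21 (SE 0.14).

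Profiles like those of the members were sought among the tested genes with a mean of at least 10 CPM, by the root mean square difference of mean-centred log2 CPM over the 6 retinas, which share the shift of Wfs1-KO replicate 2. The nearest 5 to Atp1b1 were Stau2, Vps4b, Bcl2l2, Gtf2e1 and Gstcd, with differences between 0.0389 and 0.0487. The nearest 5 to Atp1b2 were Epb41l3, Ptgr2, Clint1, Gtf3c4 and Tbc1d24, between 0.0301 and 0.0429. The nearest 5 to Atp1b3 were Dnajc1, Npepps, Oard1, Clcn4 and Brd3, between 0.0492 and 0.0643. Over the 5 retinas without Wfs1-KO replicate 2, 1 of the 5 genes was again among the nearest for Atp1b1, and 0 for Atp1b2 and Atp1b3. Between the members, the difference was 0.135 for Atp1b1 and Atp1b2, 0.709 for Atp1b1 and Atp1b3 and 0.809 for Atp1b2 and Atp1b3, and 0.0989, 0.0630 and 0.0689 without that retina.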

How the data were processed

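Total RNA of whole retinas was sequenced. The authors trimmed the reads with Trimmomatic, mapped them to mm10 with STAR and counted reads on exons with featureCounts (versions 0.39, 2.5.3a and 1.6.4 in the submitters' processing notes, while the study's methods give other versions of the first and second), and deposited a table of unnormalized read counts. The setting for strand is not given in the sources used here. Of 8 library columns, 6 were used, read by name: C as control (WT), W as Wfs1, and the replicate number. The labels do not define these letters, and the Wfs1 level is the only check of this reading. The 2 others matched no listed sample.

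The genotype comparison used the quasi-likelihood F-test of edgeR 4.0.16 (R 4.3.3), after its default filter on low counts and TMM scaling, with Benjamini-Hochberg adjustment. Standard errors (SE) came from the log2 fold change and its F. RPKM used the exon length in the table. Ratios were tested by exact permutation. Each gene of the lists that passed the filter was tested, and values were given mainly for those with a mean of 1 CPM or more. The members and lists were chosen with earlier results of these data known. Gene IDs came from GENCODE M21. Protein sequences were not used here, and some genes of the lists are not reported here. The test was tried on simulated counts, in which no retina stood apart as Wfs1-KO replicate 2 does, so the trial does not cover that case. Alternatives were DESeq2 1.42.0, limma 3.58.1 (voom), other scalings and filters, a replicate block and each retina left out. No pair of libraries of the same genotype was a duplicate, and pairs across genotypes were not compared.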

Additional observations from a re-analysis of the deposited data

How the results depend on the processing

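The log2 fold changes of Atp1b1 and Atp1b2 stayed below 0 under all 15 alternatives, from -0.48 to -0.13 and from -0.48 to -0.05, and passed under none. That of Atp1b3 passed under none and was below 0 without Wfs1-KO replicate 2 (-0.13), with that retina left out in DESeq2 (-0.13) and with limma-voom sample weights (-0.10), both added after the data were seen; leaving out 1 retina gave -0.13 to 0.58. Fxyd6 kept its direction, from -0.98 to -0.72, and passed under the same 3. The count of genes past the threshold, 2, became 52 with DESeq2, 9 with no filter, 1 with the replicate block, 35 with sample weights, 94 with DESeq2 without Wfs1-KO replicate 2 and 0 to 24 with 1 retina left out. The same-numbered retinas are different mice and did not deviate together (correlations -0.234, -0.111 and 0.0784), and the block gave -0.37, -0.39 and 0.27 for the 3 members.

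The difference in the ratio of Atp1b1 to Atp1b2 ranged from -0.0813 to 0.10 with 1 retina left out, with values of -0.05 without WT replicate 3 and -0.0813 without Wfs1-KO replicate 2. That of Atp1b2 to Atp1b3 ranged from -1.05 to 0.0769, the last without Wfs1-KO replicate 2, and that of Atp1b1 to Atp1b3 from -0.99 to -0.0044. Between members, leaving out 1 retina gave log2 ratios of -1.50 to -1.42 for Atp1b1 to Atp1b2 and 2.93 to 3.38 for Atp1b2 to Atp1b3, but 5 retinas cannot give an exact p under 0.0625. In raw counts Atp1b1 exceeded Atp1b3 in all retinas (mean log2 ratio 1.94, exact p = 0.0312). The scalings moved the median log2 fold change of all genes by less than 0.1.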
